A study of Mus musculus with 6 samples.

Results

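The miRNAs described here are the 8 guide strands of the miR-17 and miR-18 families: mmu-miR-17, mmu-miR-20a, mmu-miR-20b, mmu-miR-93, mmu-miR-106a and mmu-miR-106b, which share the seed of miR-17, and mmu-miR-18a and mmu-miR-18b, which share the seed of miR-18. They were chosen by name among the 599 mature mouse miRNAs of the array, though with earlier results of these data known, and passenger strands were left out. Total RNA came from the renal cortex of 6 C57Bl6 mice, described as individual animals. The control group held 3 untreated mice (2 male, 1 female), all 3.5 months old. The treated group held 3 mice (2 male, 1 female) that for 10 days ate a diet with 0.05% sodium and drank water with 0.5 g/L of captopril, an inhibitor of angiotensin converting enzyme. The treated males were also 3.5 months old, and the treated female, replicate 1, was 5 months old. No transgene or deletion is named for either group. Whole cortex was measured, so fewer cells of a type and less RNA per cell cannot be told apart.

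A miRNA guides the silencing complex to messenger RNAs mainly through its seed, the bases near its 5′ end, so that miRNAs with a common seed share most of their predicted targets. The miR-17 family promotes cell cycle entry and survival, with the cell cycle inhibitor Cdkn1a and the death factor Bim among its known targets, and it is best known from tumours in which its cluster is amplified. In the kidney the cluster is known for its role in nephron progenitors and for driving cyst growth in mouse models of polycystic kidney disease. The family is encoded in 3 paralogous clusters, each transcribed as a common primary transcript: miR-17/92a, within the noncoding host gene Mir17hg, miR-106a-363 on the X chromosome, and miR-106b-25, within an intron of the replication gene Mcm7.

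The target sequences of the probes, as deposited with the arrays, show how close these miRNAs are. Each matched a single RefSeq mature miRNA of the GRCm38.p6 build exactly. They are shown 5′ to 3′ with the seed, bases 2 to 8, in capitals, in the order of the clusters miR-17/92a, miR-106a-363 and miR-106b-25.
mmu-miR-17: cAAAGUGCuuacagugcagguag
mmu-miR-18a: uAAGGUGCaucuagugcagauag
mmu-miR-20a: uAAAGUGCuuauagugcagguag
mmu-miR-106a: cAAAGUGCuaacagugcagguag
mmu-miR-18b: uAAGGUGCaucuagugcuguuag
mmu-miR-20b: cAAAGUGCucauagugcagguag
mmu-miR-106b: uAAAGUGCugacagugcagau
mmu-miR-93: cAAAGUGCuguucgugcagguag

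In GRCm38.p6, miR-17 lies at chr14:115043684-115043706, miR-18a at chr14:115043867-115043889 and miR-20a at chr14:115044183-115044205, all on the plus strand. MiR-106a lies at chrX:52742541-52742563, miR-18b at chrX:52742381-52742403 and miR-20b at chrX:52742159-52742181, all on the minus strand. MiR-106b lies at chr5:138165787-138165807 and miR-93 at chr5:138165574-138165596, also on the minus strand. No other of the 599 array miRNAs had either seed at bases 2 to 8. The letters AAAGUGC stood at base 1 in 6 other miRNAs of the array, miR-290-3p, miR-291a-3p, miR-291b-3p, miR-292-3p, miR-294 and miR-295, which are known from embryonic stem cells, and none of the 6 was above background in any sample.

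The miR-17 seed miRNAs differed from each other mostly in the middle of the molecule. Positions are counted from 1 at the 5′ end. MiR-17 and miR-106a, from different clusters, differed by a single base, U10A. MiR-17 and miR-20a differed by C1U and C12U, and miR-20a and miR-20b by U1C and U10C. MiR-93 and miR-106b, from the same cluster, differed at 5 of the 21 bases compared. The miR-18 seed differs from that of miR-17 by A4G, and miR-18a and miR-18b differed from each other by A18U and A20U. Part of a probe's signal can therefore come from a near relative, most of all between miR-17 and miR-106a, and this was not tested.

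Each miRNA had 5 spots on the array, and a level is the mean log2 intensity of these spots after background correction and quantile normalisation. Probes differ in brightness for reasons of their own, so levels are not compared between miRNAs. Control replicates 1 and 3 and treated replicate 2 carried the dye Cy3, and the other samples Cy5. Between 127 and 229 of the 599 miRNAs were above background in a sample, that is, more than 3 SD over the mean log2 intensity of empty spots. Samples with the same replicate number varied together over the tested miRNAs, the 2 numbered 3 most of all (r = 0.78 between their deviations from the group means, a description over 197 miRNAs). Samples numbered 1 and 2 also varied together across numbers, less closely (r = 0.25 and 0.26). Tubule miRNAs such as miR-192 and miR-194 were above background in all 6 samples, while miR-215 of the same list, the neuronal miR-124 and the cardiac miR-208a were above background in none. Of the other markers of foreign tissues, the liver miR-122 was above background in 3 samples, and the muscle miRNAs miR-1 and miR-133a in 2 and 1, with miR-1 at 8.96 in control replicate 1. The number of arrays limits the precision.

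The members were dim to moderately bright. MiR-17, miR-20a, miR-93, miR-106a and miR-106b were above background in all 6 samples, and miR-20b in 4. MiR-18a was above background only in control replicate 3 and treated replicate 3, at 1.24 and 1.28 times the median empty spot, and miR-18b in no sample. A miRNA was tested where 3 or more samples, of whichever group, lay above background. By this filter 6 members were among the 197 miRNAs tested, and the 2 miR-18 miRNAs were not. Over all 8 members the mean spot intensity ran from 0.974 to 16.1 times the median empty spot of the same sample. The 5 spots of a member varied with a coefficient of variation of 2.98% to 15.7%, median 6.59%.

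Of the miR-17/92a cluster, miR-20a read 1.72 to 16.1 times the median empty spot. Its level in control replicates 1, 2 and 3 was 9.08, 8.84 and 9.50, and in treated replicates 1, 2 and 3 it was 8.72, 8.58 and 9.22. The sample numbered 3 was the highest in each group, and the groups overlapped. MiR-17, the founding member of the family, lay at 8.23, 8.36 and 9.22 in the controls and at 8.14, 7.95 and 8.68 in the treated samples. Here too both samples numbered 3 stood above all others, and the groups overlapped through treated replicate 3. MiR-18a, which has a seed of its own although it is cut from the same transcript, lay between 6.47 and 6.80, and its 2 highest values were again those of the samples numbered 3.

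Of the X-linked miR-106a-363 cluster, miR-106a varied least among the tested members, over a range of 0.55 on the log2 scale. It was dim, at 1.21 to 3.14 times the median empty spot, against 1.11 to 3.65 for miR-20b. MiR-106a lay at 7.71, 7.59 and 7.82 in control replicates 1, 2 and 3 and at 7.32, 7.27 and 7.45 in the treated samples. Every treated sample was below every control, which among the 197 tested miRNAs held for 4 (2.03%), while 5 (2.54%) had every treated sample above every control. MiR-20b lay at 7.43, 7.07 and 7.87 in the controls and at 7.19, 6.87 and 7.66 in the treated samples. Its groups overlapped, and in both samples numbered 2 it was not above background. MiR-18b stayed between 6.26 and 6.47 in all samples, which is the level of the background, so neither its presence nor a difference was detectable.

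Of the miR-106b-25 cluster, miR-93 had the widest range of all members, 1.56 on the log2 scale. It lay at 7.40, 7.65 and 8.96 in control replicates 1, 2 and 3 and at 7.40, 7.43 and 8.46 in the treated samples. The groups overlapped almost wholly, and the spread lay between the samples numbered 3 and the rest. MiR-106b followed the same order of high and low, at 7.65, 7.77 and 8.84 in the controls and 7.59, 7.76 and 8.52 in the treated samples. Treated replicate 1 and control replicate 1 shared a value for miR-93 because quantile normalisation gives equal ranks the same level.

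**Figure D1:**
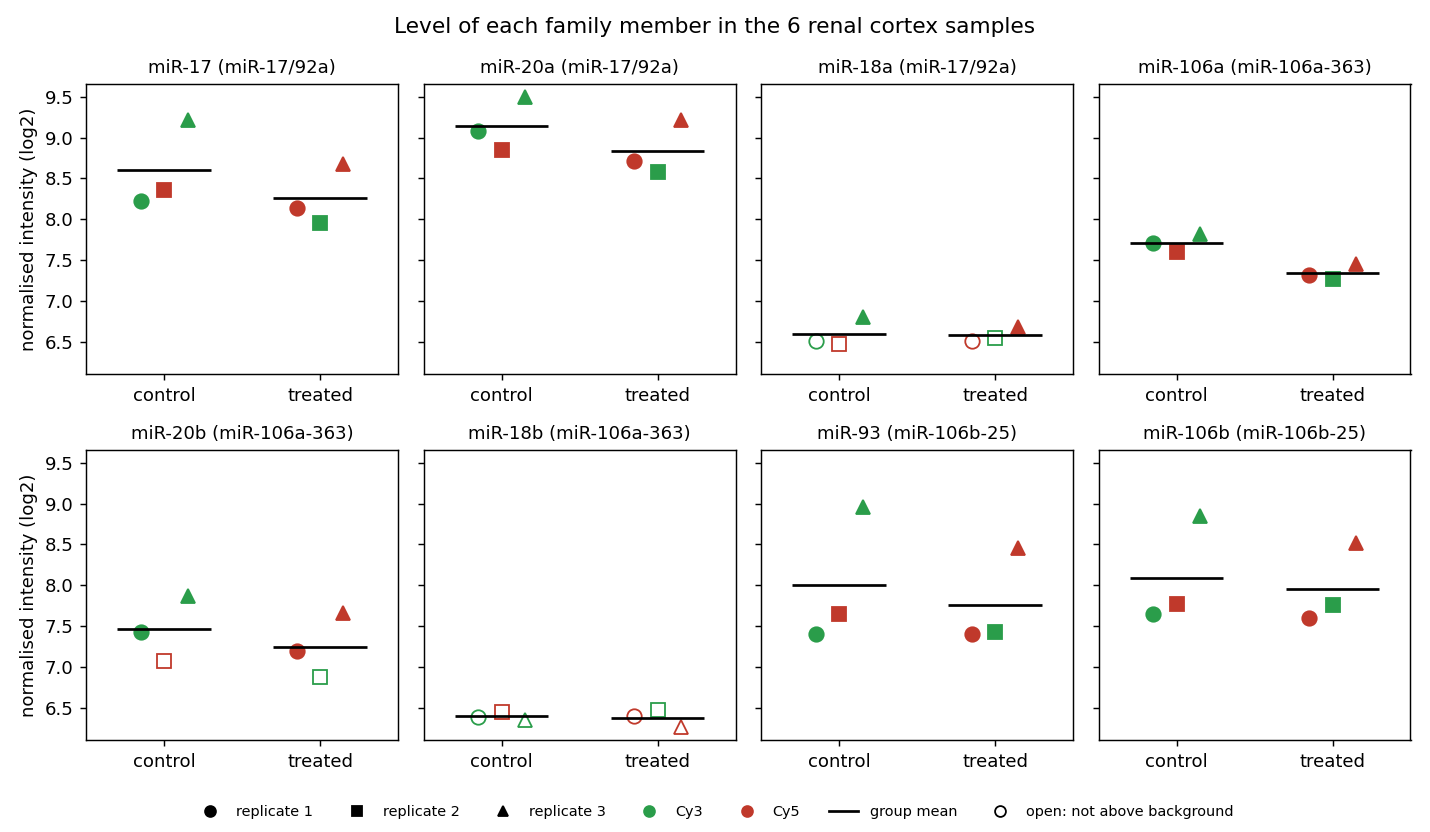
Log2 normalised intensity (vertical axis) of each of the 8 members in the 3 control and 3 treated samples, with marker shape for the replicate number, colour for the dye, a line for the group mean, and open markers for samples where the miRNA was not above background. Triangles, the samples numbered 3, stand highest in both groups for every tested member, and miR-106a is the member whose treated samples all lie below its controls.

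The difference between the samples numbered 3 and the other 4 was larger than the difference between the groups for 5 of the 6 tested members. The share of all tested miRNAs for which this held is not given here. The mean of control replicate 3 and treated replicate 3 lay above the mean of the other samples by 1.24 on the log2 scale for miR-93, 0.99 for miR-106b, 0.78 for miR-17, 0.62 for miR-20b and 0.56 for miR-20a, but by 0.16 for miR-106a. The median over all 197 tested miRNAs was 0.06, but 43 of them (21.8%) lay above 0.5 and 33 (16.8%) below -0.5. For the same 5 members the samples numbered 3 were the 2 highest of the 6, which held for 59 of all tested miRNAs (29.9%). For miR-106a, control replicate 1 lay above treated replicate 3. This is a description of samples that were seen to stand apart, with no test.

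Other features of the samples numbered 3 were as follows. Control replicate 3 was female and in Cy3, and treated replicate 3 was male and in Cy5. The labels do not say what else these samples share, and this was not tested. The summed linear level of the smooth muscle markers miR-143 and miR-145, both above background in all samples, was 7508 in control replicate 3 and 5917 in treated replicate 3, against 3715 to 4722 in the other samples. MiR-143 set both samples apart, at 12.13 and 11.70 against 10.74 to 11.14. MiR-145 did not, since treated replicate 3, at 11.33, lay below treated replicate 2, at 11.45. The summed level of the 2 endothelial markers, miR-126-3p and miR-126-5p, was 18949 and 17481 against 14794 to 14967. That sum was almost wholly miR-126-3p, since miR-126-5p was above background in only 4 samples and lay at 6.71 and 6.94 in the samples numbered 3, below control replicate 1 at 8.05 and treated replicate 1 at 7.68. That of the 5 leukocyte markers was lower, at 675 and 945 against 1815 to 1979, with miR-142-3p and miR-142-5p not above background in any sample. The sum of the 6 tubule markers was also lowest there, at 30961 and 34649 against 35676 to 40199. Its members went different ways. MiR-10a was lowest in the samples numbered 3, at 11.70 and 13.13 against 13.39 to 13.75. MiR-194 was highest there, at 12.57 and 12.33 against 11.57 to 11.79, as was the dim miR-204. MiR-192 was highest in control replicate 3, at 13.55. The epithelial and erythrocyte sums were lowest in control replicate 3, at 12041 and 650. In treated replicate 3 they were 17573 and 2136.5, within the range of the other samples. The epithelial markers also went different ways. MiR-200c was lowest in the samples numbered 3, at 10.46 and 11.57 against 12.03 to 12.41, and miR-200b only in control replicate 3, at 12.41. MiR-200a was highest there, at 11.27 and 10.84 against 10.08 to 10.68, as were miR-429 and the dim miR-141. The part of these cell types in the level of the miR-17 family was not tested.

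The clusters were alike in which samples were high, and differed in how far they spread. Each level was centred on the miRNA's mean over the 6 samples and averaged over the 2 tested members of a cluster. The miR-106b-25 mean was 0.95 in control replicate 3 and 0.53 in treated replicate 3, and between -0.45 and -0.25 in the other samples. The miR-17/92a mean was 0.65 and 0.24 in the samples numbered 3 and between -0.44 and -0.06 elsewhere. The miR-106a-363 mean was 0.41 and 0.12 there, but control replicate 1, at 0.13, lay slightly above treated replicate 3. The difference between clusters was not tested.

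**Figure D2:**
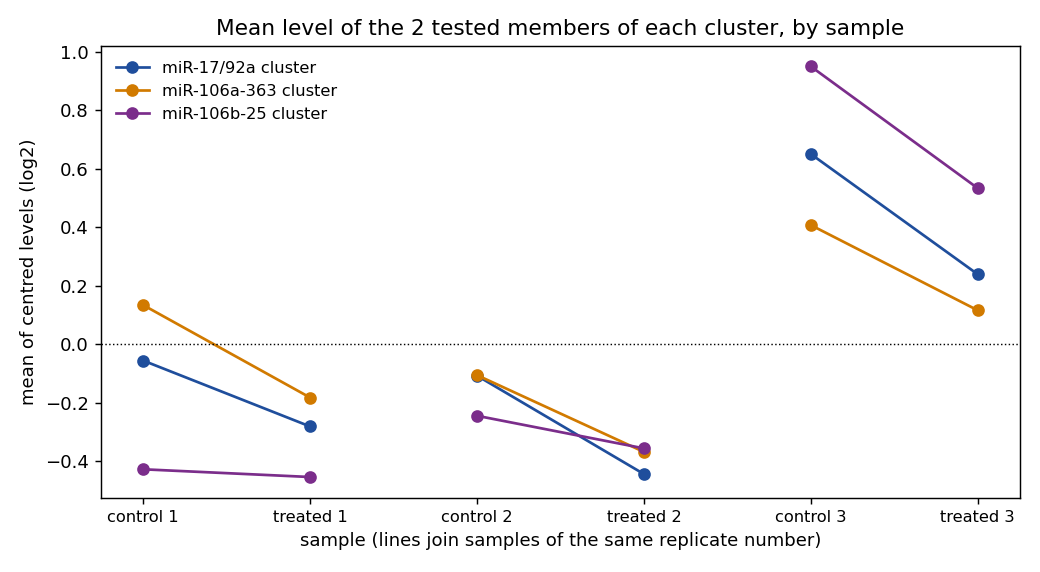
Mean centred log2 level (vertical axis) of the 2 tested members of each cluster in each sample (horizontal axis), with lines joining samples of the same replicate number. Control replicate 3 is the highest sample for every cluster, and in each pair the treated sample lies below the control, by least for miR-106b-25 in pair 1.

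Closeness of the sequences and closeness of the profiles over the 6 samples did not go together for all pairs. MiR-93 and miR-106b, with 5 differing bases but a common transcript, had a Pearson correlation of 0.993 over the 6 samples. MiR-20a and miR-20b, from different clusters and with 2 differing bases, had 0.971, and miR-17 and miR-20a, of the same cluster and with 2 differing bases, 0.930. The third pair within a cluster, miR-106a and miR-20b with 2 differing bases, had only 0.680. MiR-17 and miR-93, from different clusters and with 4 differing bases, had 0.963. MiR-17 and miR-106a, 1 base apart, had 0.703, and miR-106a with miR-106b 0.470, the lowest of the 15 pairs. These values describe 6 samples that share dyes and the samples numbered 3, so they are given without a test.

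Treated and control samples were then compared to ask whether the family differs when sodium is restricted and captopril given, which is known to stimulate renin and to recruit renin-producing cells along the arterioles. None of the 6 tested members passed. In limma with a term for dye, 0 of 197 miRNAs had a Benjamini-Hochberg adjusted p under 0.05 (0%), and 1 (0.508%), which was no member, had an unadjusted p under 0.05. All 6 members had a fitted difference below 0, as had 104 of the 197 miRNAs (52.8%). Their median difference was -0.26 on the log2 scale, against -0.01 over all tested miRNAs. The members share samples and partly sequence, so the 6 signs are not separate observations. The summed linear level of the 3 erythrocyte markers was 650 to 1761 in control and 2103 to 2424 in treated samples. Of these markers only miR-451 separated the groups. MiR-486 overlapped, at 9.47 in control replicate 2 and 8.84 in treated replicate 3, and miR-144 was above background in none. The sums of the tubule, epithelial, leukocyte, endothelial and smooth muscle markers overlapped between the groups. The part of blood in the differences of the family was not tested.

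The fit gave each member an interval that included 0. Control samples had a miR-106a level of 7.71 ± 0.11 and treated samples of 7.34 ± 0.09 (SD, n = 3 each). Its treated minus control difference was -0.36 (SE 0.21, 95% interval -0.89 to 0.18, adjusted p = 0.995 in limma), a level 0.782 times that of control. Its difference exceeded the SD within either group, but the interval of the dye-adjusted fit included 0. MiR-17 was 8.60 ± 0.54 and 8.26 ± 0.38, a difference of -0.36 with the wider interval of -1.36 to 0.63. MiR-20a was 9.14 ± 0.33 and 8.84 ± 0.34, a difference of -0.29 (-1.09 to 0.50). For miR-17 and miR-20a the difference was smaller than or about as large as the spread within a group.

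The remaining members lay closer to 0 relative to their spread. Levels of miR-20b were 7.46 ± 0.40 (control) and 7.24 ± 0.40 (treated), and the difference was -0.21 (95% interval -1.10 to 0.68). MiR-93 was 8.00 ± 0.84 and 7.76 ± 0.60, a difference of -0.23 (-1.68 to 1.21). MiR-106b was 8.09 ± 0.66 and 7.96 ± 0.49, a difference of -0.10 (-1.28 to 1.08). The adjusted p of these members, as of miR-17 and miR-20a, was 0.995 in limma. Only the interval of miR-106a lay within 2-fold either way, as did those of 104 of the 197 tested miRNAs (52.8%), so a change of 2-fold downwards was compatible with the data for the other 5. The median fitted difference of the 2 tested members was -0.33 for miR-17/92a, -0.28 for miR-106a-363 and -0.17 for miR-106b-25.

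With samples paired by replicate number, a pairing taken from these data, the members lay closer together. In all 3 pairs the treated sample was below the control for miR-17, miR-20a, miR-20b, miR-106a and miR-106b, which held for 32 of the 197 tested miRNAs (16.2%). MiR-106a differed by -0.40, -0.33 and -0.37 in pairs 1, 2 and 3, and miR-20b by -0.24, -0.20 and -0.21. MiR-20a differed by -0.36, -0.27 and -0.28, so these 3 members had pair differences of nearly the same size. MiR-17 differed by -0.09, -0.41 and -0.54, and miR-93 by 0, -0.22 and -0.50. MiR-106b differed by -0.05, -0.01 and -0.33, so its lower mean came mostly from pair 3.

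When replicate number entered the model as a block together with dye, limma called 0 of 197 at an adjusted p under 0.05 (0%) and 15 had an unadjusted p under 0.05 (7.61%), none of them a member. The SE of miR-106a became 0.17 (adjusted p = 0.764), and that of miR-93 was 0.20 in place of 0.58 (adjusted p = 0.810). This fit leaves 1 residual degree of freedom per miRNA, and its errors rest largely on the spread pooled over miRNAs. With the block and no dye term, the unadjusted p was 0.0202 for miR-106a and 0.0372 for miR-20a, with adjusted p of 0.413 and 0.421 in limma.

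Within pairs the samples carried opposite dyes, and within a dye the direction was not the same for most members. In Cy3, treated replicate 2 was set against control replicates 1 and 3, and in Cy5, treated replicates 1 and 3 against control replicate 2. MiR-106a was lower in the treated samples in both, by -0.50 in Cy3 and -0.21 in Cy5. The other 5 tested members were lower in Cy3 and higher in Cy5, and 151 of the 197 tested miRNAs (76.6%) likewise had opposite signs. The Cy3 and Cy5 differences were -0.77 and 0.05 for miR-17, -0.71 and 0.12 for miR-20a, -0.78 and 0.36 for miR-20b, -0.75 and 0.28 for miR-93, and -0.48 and 0.29 for miR-106b. Each of these contrasts rests on 1 mouse in one of the groups. Control replicate 3 enters only the Cy3 contrast, and treated replicate 3 only the Cy5 contrast. By arithmetic, a high level in both lowers the Cy3 difference and raises the Cy5 difference. The part of this in the opposite signs was not tested.

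The 4 males of 3.5 months form a subset in which each group has 1 sample in each dye. In this subset miR-106a differed by -0.30 and miR-20a by -0.06, whereas miR-17 and miR-20b each differed by 0.02, miR-93 by 0.42 and miR-106b by 0.43. The subset holds treated replicate 3 but not control replicate 3, which is female, so it breaks the pair of samples in which these members were high. Leaving out both samples numbered 3, a choice made after seeing the data, gave -0.36 for miR-106a, -0.31 for miR-20a, -0.25 for miR-17, -0.22 for miR-20b, -0.11 for miR-93 and -0.03 for miR-106b. No member passed in either fit.

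**Figure D3:**
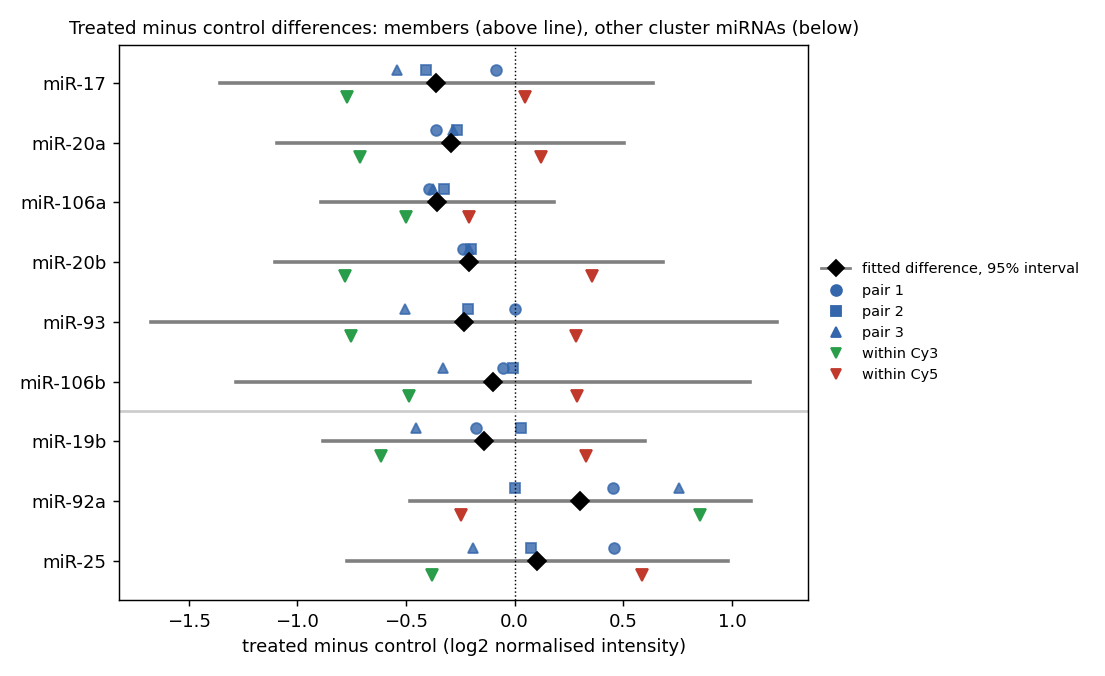
Treated minus control differences in log2 normalised intensity (horizontal axis) for the 6 tested members and the 3 other tested miRNAs of the clusters, with the fitted difference and its 95% interval (diamond and grey bar), each same-numbered pair (blue) and the contrast within each dye (triangles pointing down). MiR-106a is the member with both dye contrasts and all pairs below 0, and every interval includes 0.

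The authors' processed intensities, for which no source used here gives the normalisation, had the same samples high. MiR-106a read 143, 109 and 181 in control replicates 1, 2 and 3 and 94, 93 and 113 in the treated samples, so that in that table the groups overlapped through treated replicate 3 and control replicate 2. MiR-17 read 253, 274 and 623 in the controls and 204, 187 and 400 in the treated samples, with the samples numbered 3 again highest. MiR-18b read 6 to 19 and miR-18a 19 to 46. On the log2 scale after adding 1, the same model gave differences of -0.43 for miR-106a and -0.51 for miR-17 and an adjusted p of 0.998 for each in limma.

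The other miRNAs of the 3 clusters, which carry the seeds of miR-19 and of miR-25 and miR-92a, did not follow a common direction. MiR-92a, which comes from both miR-17/92a and miR-106a-363, had levels of 10.49 ± 0.50 (control) and 10.89 ± 0.16 (treated) and a difference of 0.30 (95% interval -0.48 to 1.09). MiR-19b, also from both clusters, was 7.29 ± 0.40 and 7.09 ± 0.17, a difference of -0.14 (-0.88 to 0.60). MiR-25 of the miR-106b-25 cluster was 9.67 ± 0.46 and 9.78 ± 0.30, a difference of 0.10 (-0.77 to 0.98). Of these 5 miRNAs, 3 were tested and 0 passed in either direction (adjusted p = 0.995 each in limma), and miR-19a and miR-363 were not above background in any sample.

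MiR-25 and miR-92a also differed in their sample profile from each other. MiR-25 was highest in the samples numbered 3, by 0.57 over the mean of the other 4, as were miR-93 and miR-106b of its cluster. MiR-92a did not show this: it was lowest in control replicate 3, at 10.12, and lay at 10.88 in treated replicate 3, within the range of 10.29 to 11.06 of the other 4 samples. The passenger strands miR-17*, miR-18a*, miR-20a*, miR-20b*, miR-93* and miR-106b* were above background in 0 of 6 samples each.

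Among the tested miRNAs outside the family, the 5 whose levels followed the mean centred profile of the 6 miR-17 seed members most closely over the 6 samples were miR-101b (Pearson correlation 0.989), miR-27b (0.970), miR-126-3p (0.967), miR-200a (0.963) and miR-22 (0.953). MiR-101b was dim, between 6.81 and 7.77, whereas the endothelial miR-126-3p was bright, between 13.84 and 14.20. The mean profile was itself highest in the samples numbered 3. The points are 6 samples that share dyes, and the ranking was taken over all tested miRNAs, so the values only describe likeness.

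**Figure D4:**
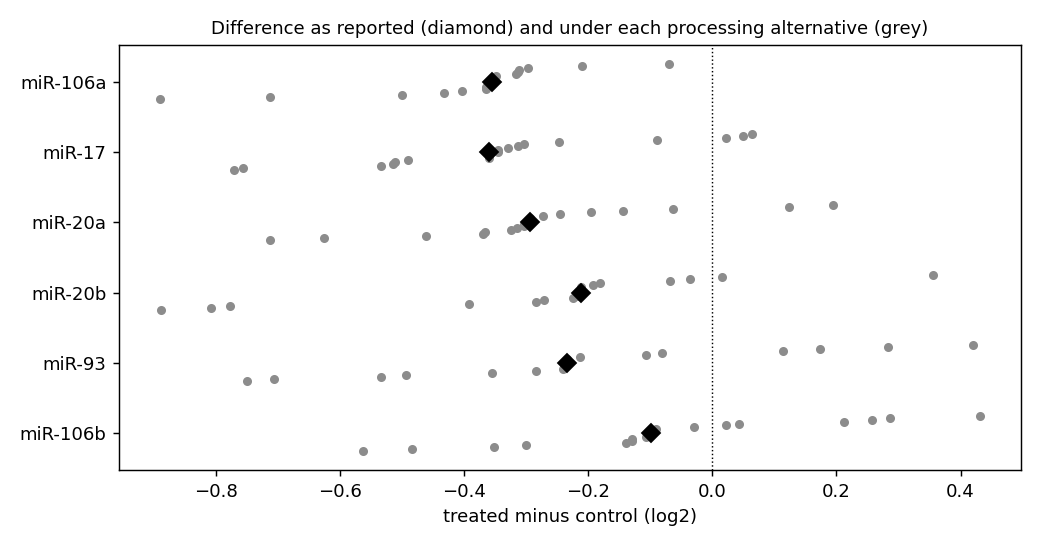
Treated minus control difference in log2 (horizontal axis) of each tested member as reported (diamond) and under each alternative processing or choice of samples (grey points). All points of miR-106a lie below 0, from -0.89 to -0.07, and those of the other members lie on both sides.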

How the data were processed

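Small RNAs were tailed with poly(A), tagged and stained with Cy3 or Cy5 by a service provider, per the labels' protocols. Per the file headers, the deposited spot tables give the mean intensity of each of 3968 spots on a linear scale, 669 of them empty. The authors' processed intensity was deposited in another table, in whole numbers with medians of 17 to 19 and with scale and centring unknown. Its columns correlated best with their own samples' spots (Spearman's rho 0.995 to 0.999).

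Spot intensities were corrected with normexp (offset 50), averaged as log2 over the 5 spots of a probe and quantile-normalised over 599 probes in R 4.3.3 with limma 3.58.1. The 197 miRNAs above background in at least 3 samples were fitted with group and dye (lmFit, eBayes, two-sided, Benjamini-Hochberg), a test first checked on simulated data. All p-values named as limma's come from it unless another fit is named. Named by rule were the 8 members, the other miRNAs of their clusters, passenger strands above background in any sample (none was) and the 5 miRNAs of most similar profile. Cell type markers come from a list, the 6 passenger strands are named for their count of 0, and the miR-290 to miR-295 group was named for its sequence. Members, lists and tests were chosen with earlier results of these data known.

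Same-numbered samples deviated together from their group means (r = 0.447, 0.460 and 0.781 in pairs 1, 2 and 3), each above the limit of 0.1 used here, and were treated as pairs. Control replicate 2 with treated replicate 1 (r = 0.246) and control replicate 1 with treated replicate 2 (r = 0.256) were also above it. The limit therefore does not by itself single out pairs 1 and 2. The pairing comes from the data, since the labels do not say what a number marks, and deviations within a group of 3 are not independent. The empty spots of same-numbered samples also correlated (rho 0.494, 0.529 and 0.356 in pairs 1, 2 and 3). In the other pairs of a control and a treated sample, rho ran from -0.011 to 0.418. Technical and biological sharing within a pair cannot be told apart here. The alternatives were other background corrections, normalisations and filters, no dye term, a replicate block, males only, the processed values and leaving out samples.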

Additional observations from a re-analysis of the deposited data

How the results depend on the processing

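The count of miRNAs past an adjusted p of 0.05 was 0 under all 19 alternatives. The count at an unadjusted p under 0.05, 1 of 197, was 2 with cyclic loess, 8 of 599 with no filter on dim probes, 0 of 117 among miRNAs above background in all 6 samples, 3 with no dye term, 15 with the replicate block and dye, 19 with the replicate block and no dye term, and 4 without both samples numbered 3 (chosen after seeing the data). It ran from 0 to 12 when a sample was left out, reaching 12 without replicate 2 of either group and 2 without control replicate 3, and falling to 0 without replicate 1 or 3 of the treated group. The block changed no call.

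The median member difference, -0.26, was -0.73 under 75th percentile scaling, where the median of all 197 moved to -0.53, and 0.09 without normalisation between samples, where that median moved to 0.29. It ran from -0.73 without control replicate 2 to 0.20 without treated replicate 2. Each of these fits leaves 1 mouse to stand for its group beside the dye term. They repeat the contrasts within Cy3 and within Cy5, in that order, and are not separate results. MiR-106a stayed below 0 under all 19 alternatives, from -0.89 to -0.07. With no filter on dim probes its difference was unchanged, and its unadjusted p was 0.0179 in limma (adjusted p = 0.998). That fit pooled the spread over all 599 miRNAs, of which 354 were above background in no sample.

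The direction turned without normalisation between samples for miR-17 (0.064), miR-20a (0.19), miR-93 (0.11) and miR-106b (0.26). Among the males of 3.5 months it turned for miR-17 (0.022), miR-20b (0.016), miR-93 (0.42) and miR-106b (0.43), and with the processed values for miR-106b (0.022). With a sample left out, the difference ran from -0.77 to 0.049 for miR-17, -0.71 to 0.12 for miR-20a, -0.78 to 0.36 for miR-20b, -0.75 to 0.28 for miR-93 and -0.48 to 0.29 for miR-106b. All 5 turned without treated replicate 2, miR-93 (0.17) and miR-106b (0.21) also without control replicate 3, and miR-106b (0.043) without treated replicate 1. The fit without treated replicate 2 is the Cy5 contrast given above, so its turns are not a separate result. The cause of the turns was not tested. Signal close to the empty spots limits miR-18a, miR-18b, miR-20b and miR-106a. With the background subtracted in place of normexp, the differences were -0.71 for miR-106a and -0.81 for miR-20b, against -0.36 and -0.21.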
